A study of Drosophila melanogaster with 800 samples.

Results

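The genes described here are cytoplasmic ribosomal protein genes of Drosophila melanogaster that have a duplicate and are grouped here in pairs of copies. They were taken by FlyBase symbol, 10 genes in 5 families, and symbols were turned into FBgn identifiers. Described here are 8 of them: the pairs RpL22 and RpL22-like, RpS19a and RpS19b, and RpS28b and RpS28a, and the single copies RpS5b and RpS10a, whose partners were not analysed here. The deposited table has 35014 features. In each complete pair the first gene as written above is called the main copy and the other the second copy, and RpS5b and RpS10a are counted with the second copies. The 3 main copies lie on the X chromosome. The second copies lie on autosomes, RpL22-like on arm 2R and RpS5b, RpS19b, RpS10a and RpS28a on arm 3R.

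The ribosome is built from ribosomal RNA and a fixed set of proteins, and in flies most of these proteins come from a single gene that every cell uses. RpL22 belongs to the large subunit, and RpS5b and the RpS10, RpS19 and RpS28 proteins belong to the small subunit. In a minority of families a retained duplicate is transcribed mainly in the gonads, as is known for RpS5b in the ovary and for RpL22-like in the testis. Beside such a duplicate, the widely used copy supplies the same protein in the rest of the body.

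The libraries came from whole flies of 200 inbred, sequenced lines of a reference panel founded from wild-caught females and made by 20 generations of full-sib mating. Each group was 1 line and 1 sex, untreated, as mated flies 3 to 5 days old kept at 25 °C, with 2 replicate pools of 25 females or 30 males, which gives 400 groups and 800 libraries. Levels are FPKM, read numbers scaled by exon length and by library size, so levels can be compared between genes. Tests used the deposited log2(FPKM + 0.001) values. In whole flies a larger share of gonad cells and more RNA per gonad cell cannot be told apart.

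The library sizes that scaled the FPKM values were recovered from the steps between low values. They lay between 7.27 and 30.6 M (megareads), with a median of 11.6 M in female and 11.3 M in male libraries. They are not counts of all reads sequenced. The smallest step was taken as 1 read, and on that scale at least 50.9% of the low read numbers in each library were odd. If a step stood for more than 1 read, the read numbers given below would be too low and the floor in FPKM too high. Among 15447 features tested for a sex difference, 3215 (20.8%) were higher in females and 5749 (37.2%) higher in males by at least 1 log2 unit at an adjusted p below 0.05 (limma, Benjamini-Hochberg). Subtracting from each library the median of features expressed in both sexes, which differed by 0.61 log2 units between the sexes, changed these counts to 1771 and 8227. Marker lists matched the labelled sexes. Summed over 9 eggshell genes of the follicle cells, led by Cp15 and Cp18, the median was 5501 FPKM in females and 6.95 FPKM in males. Summed over 5 accessory gland genes, led by Acp95EF and Acp53Ea, the median was 6841 FPKM in males and 1.46 FPKM in females. In 14 lines, 14 male libraries had more than 100 FPKM or 2 female libraries had less than 1000 FPKM of the summed eggshell genes, and results are also given without these lines where they differed. Replicate libraries with the number 1 had more ribosomal protein RNA than those with the number 2. The mean over 64 single-copy ribosomal protein genes was 0.20 log2 units higher in replicate 1 in females and 0.11 in males, and for RpL22 the difference was 0.35 in females and 0.32 in males.

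The main copies were abundant in every library of both sexes and were higher in females. RpL22 ranged from 459 to 1285 FPKM in female libraries, with a median of 741 FPKM, and from 202 to 566 FPKM in males, with a median of 351 FPKM. RpS19a had a median of 591 FPKM (356 to 982 FPKM) in females and 235 FPKM (130 to 425 FPKM) in males. In both genes the sexes overlapped, and 371 of 400 female libraries for RpL22 and 377 of 400 for RpS19a lay above all male libraries. RpS28b, the most abundant member, had a median of 1109 FPKM (831 to 1757 FPKM) in females and 543 FPKM (324 to 824 FPKM) in males. Its sexes did not overlap.

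Over the 200 lines, the female-minus-male difference was 1.11 ± 0.02 (SE) log2 units for RpL22, 1.36 ± 0.02 for RpS19a and 1.05 ± 0.01 for RpS28b, and female line means were higher in 200 of 200 lines. All 3 passed the test (limma, adjusted p of 5.04e-137 or smaller). The differences of the main copies depended on the scale: centred on the library medians they were 0.50 for RpL22, 0.75 for RpS19a and 0.44 for RpS28b, all under the minimum. They also lay within the range of the single-copy ribosomal protein genes, RpL22 and RpS28b near its lower end. All 64 single-copy ribosomal protein genes were higher in females, with a median difference of 1.31. The smallest differences among these were 1.05 in RpS29, 1.09 in RpL35 and 1.09 in RpL24, and the largest were 1.76 in RpS2, 1.63 in RpL41 and 1.55 in RpS9. With the mean of these 64 genes subtracted from each library, RpL22 stood at -0.20, RpS28b at -0.26 and RpS19a at 0.05. On that scale female line means were higher in 19 of 200 lines for RpL22, in 0 for RpS28b and in 121 for RpS19a.

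The second copies differed between the sexes far more than the main copies, 4 of them toward males and RpS5b toward females. RpL22-like ranged from 9.0 to 47.8 FPKM in male libraries, with a median of 22.6 FPKM, and in females its median was 0.0739 FPKM and its highest value 1.22 FPKM. The sexes did not overlap. In 124 of 400 female libraries RpL22-like was listed at 0, and the median female library held 1 read of it, against 324 reads in males. RpS28a, the least abundant member, had a median of 6.47 FPKM (0.701 to 21.1 FPKM) in males and was listed at 0 in 341 of 400 female libraries. At the median female depth, 0 reads of RpS28a in a library allow up to 0.854 FPKM (3 reads, counting error only). A low level in a single female library could therefore be missed. RpS28a was above 0 in 59 of 400 female libraries, and its mean over all of them was 0.0509 FPKM.

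RpS19b was the most abundant of the second copies in males, with a median of 30.5 FPKM (15.6 to 61.5 FPKM). In females its median was 0.909 FPKM, a level resting on a median of 7 reads, and its range of 0 to 19.0 FPKM reached into the male range in 2 libraries. RpS10a had a median of 14.2 FPKM (6.0 to 31.2 FPKM) in males and 0.261 FPKM in females, where it was listed at 0 in 73 libraries and reached 54.2 FPKM in the highest. The highest female value of RpS10a exceeded every male value, and 392 of 400 female libraries lay below all male libraries.

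On the log2 scale the female-minus-male differences were -9.61 ± 0.18 (SE, 200 lines) for RpL22-like, -5.22 ± 0.07 for RpS19b, -6.75 ± 0.20 for RpS10a and -11.35 ± 0.16 for RpS28a. All 4 passed the test (limma, adjusted p of 6.44e-86 or smaller), and they kept their direction and call on every other scale tried. The 4 genes entered this test through their male levels alone. Their female log2 means, in the same order, were -5.12, -0.30, -2.94 and -8.74, below the level of 0 that admitted a feature. With no filter on level, all 4 were still called male-higher. Male line means were higher in 200 of 200 lines for RpL22-like, RpS19b and RpS28a and in all but 2 lines for RpS10a. The sizes depended on the pseudocount because of the low female values: with 1 FPKM added instead of 0.001, the differences were -4.40 for RpL22-like, -4.02 for RpS19b, -3.39 for RpS10a and -2.79 for RpS28a. In plain FPKM, the ratio of the male to the female mean was 188 for RpL22-like, 28.9 for RpS19b, 16.1 for RpS10a and 133 for RpS28a.

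RpS5b went the other way and was the only member that was abundant in females and scarce in males. Its female libraries ranged from 396 to 1469 FPKM with a median of 675 FPKM, and its male libraries from 4.85 to 81.2 FPKM with a median of 13.5 FPKM. The sexes did not overlap. The female-minus-male difference was 5.61 ± 0.03 log2 units (limma, adjusted p = 5.82e-220; higher in females in 200 of 200 lines), and the ratio of the median levels was 50.1. The female-higher members were therefore RpL22, RpS19a, RpS28b and RpS5b, 4 of 8, and the male-higher members were RpL22-like, RpS19b, RpS10a and RpS28a, also 4 of 8. The genes were picked with these patterns known, so the counts describe the set.

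**Figure D1:**
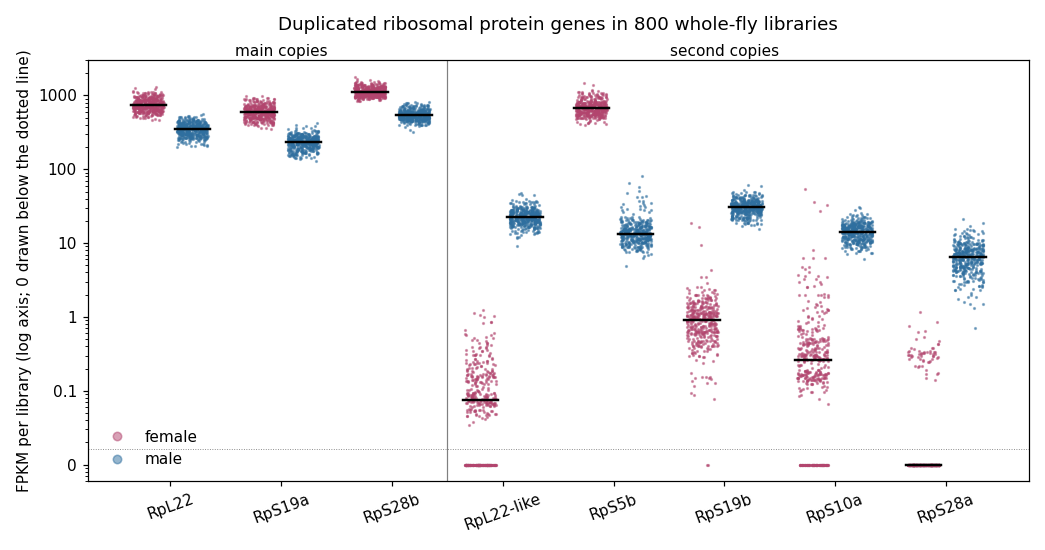
Level of each gene (FPKM, log axis, values of 0 drawn below the dotted line) in 400 female and 400 male libraries; each point is a library and black bars are medians. The 3 main copies lie at medians of 235 to 1109 FPKM in both sexes, RpS5b is high in females alone (675 against 13.5 FPKM), and the other 4 second copies are at 6.47 to 30.5 FPKM in males and near 0 in most female libraries.

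Marker genes of the gonads showed where this range lies. Of 16 testis germline markers, 13 were higher in males by up to 13.83 log2 units (Mst98Cb, a sperm-tail protein gene), and the other 3 were higher in females, bam by 4.26, CycB3 by 2.77 and twe by 1.05. The 2 with the highest mean were twe and bol, and bol, a meiotic regulator, differed by -3.02. Of 10 ovary germline markers, 9 were higher in females, and grk did not pass the minimum, at 0.36. The 2 with the highest mean, bru1 and gcl, differed by 2.23 and 3.23, and osk, a maternal RNA, by 11.09. The differences of the 5 second copies lay inside the ranges of these lists.

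**Figure D2:**
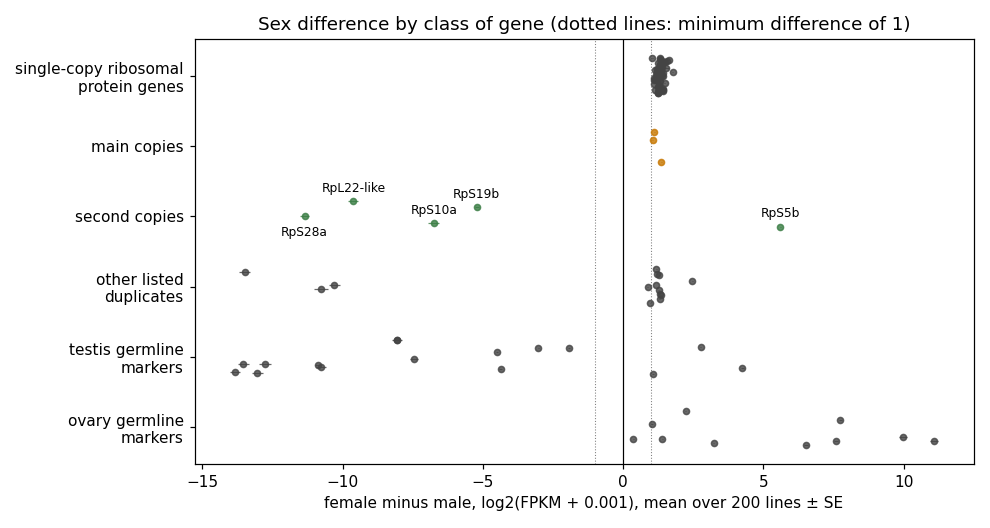
Female-minus-male difference in log2(FPKM + 0.001) for each gene, as the mean over 200 lines with its SE; rows are classes of genes, and dotted lines mark a difference of 1. The main copies (1.05 to 1.36) lie within the range of the 64 single-copy genes (1.05 to 1.76), whereas the second copies spread from -11.35 (RpS28a) to 5.61 (RpS5b).

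Other genes listed by symbol as duplicates of ribosomal protein genes showed both patterns. The list rests on symbols alone. Whether its genes named -like code for ribosomal proteins was not checked. Of 15 with a row, 14 were tested, of which 9 passed toward females and 3 toward males. The 3 male-higher genes were RpL10Aa at -13.48, RpS28-like at -10.77 and RpL37-2 at -10.30 log2 units. The partners RpL10Ab and RpL37-1 lay in the range of the single-copy genes, at 1.27 and 1.18, as did RpL37A at 1.28, which shares the number in its symbol but is the gene of another protein. In the families RpS15A and RpL34 both copies were close, with RpS15Aa at 1.35, RpS15Ab at 0.97, RpL34a at 1.30 and RpL34b at 1.30. RpS14a and RpS14b stood at 1.18 and 0.87, and RpL24-like at 1.22. RpLP0-like had the largest female-higher difference among them at 2.47, and RpL7-like was too low for the test, with mean log2 levels of -6.92 in females and -8.66 in males. RpS14b and RpS15Ab were under the minimum difference.

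The balance within a pair was then compared between the sexes, since a ratio of plain FPKM values within a library does not depend on the library's scale. The log2 ratio below lacks this property where the second copy was listed at 0, as in many female libraries. There the added constant alone stands for the second copy, and the log2 ratio moves with the level of the main copy. RpS19b supplied 11.6% of its pair in males (5.89% to 20.0%) and 0.148% in females, and RpL22-like 6.02% in males (2.89% to 11.6%) and 0.0102% in females. RpS28a supplied the least, 1.19% of its pair in males (0.336% to 3.42%) and a median of 0 in females, with RpS28-like not counted. In males, therefore, the main copy held most of the pair's RNA in every line and in each of the 3 pairs.

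The log2 ratio of second to main copy differed between the sexes, female minus male, by -10.73 ± 0.18 (SE, 200 lines) for RpL22-like against RpL22, -6.58 ± 0.07 for RpS19b against RpS19a and -12.41 ± 0.16 for RpS28a against RpS28b, with the higher ratio in males in 200 of 200 lines for each pair. In each of the 3 pairs the two-sided permutation p by sign changes over lines was 1e-05, the smallest that 100000 resamples can give. With 1 FPKM added, the differences were -5.51, -5.38 and -3.84 in the same order of pairs. How reads that match both copies of a pair were counted is not given in the sources used here, and shared reads would move values between copies of a pair.

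**Figure D3:**
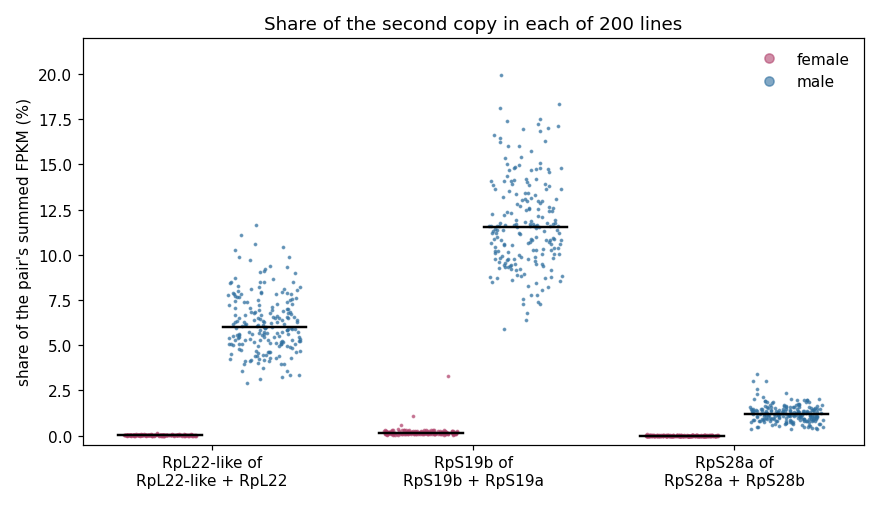
Share of the second copy in the summed FPKM of its pair (percent), in each of 200 lines for females and males; points are lines and black bars are medians. In males the second copies reach medians of 1.19% (RpS28a), 6.02% (RpL22-like) and 11.6% (RpS19b), and in females all 3 are near 0.

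In males the share of variance that lay between lines was larger in 4 second copies than in the main copies, and RpS5b lay between. The SD between male lines was 0.30 log2 units in RpS5b, within the 0.26 (RpS19b) to 0.50 (RpS28a) of the other second copies. Its SD between replicates was 0.43. The SD between male lines was 0 in RpL22 and RpS19a and 0.089 in RpS28b. In males, 13452 of 15017 tested features (89.6%) varied between lines at an adjusted p below 0.05 (limma-moderated F test of lines against replicates), and 6 of the 8 members did. Broad-sense heritability, the share of variance between libraries that lay between lines, was highest in RpL22-like at 0.784 (95% interval 0.725 to 0.832). It was 0.637 (0.547 to 0.713) in RpS19b, 0.589 (0.491 to 0.673) in RpS10a and 0.543 (0.437 to 0.633) in RpS28a. The median over all tested features in males was 0.510, and the intervals of RpL22-like and RpS19b lay above it, whereas those of RpS10a and RpS28a held it. RpS5b was lower at 0.323, and among the main copies RpS28b had 0.152. RpL22 and RpS19a did not pass the test, with an estimate of 0 in each and upper limits of 0.0497 and 0.0780. These calls depended on the shift between replicate numbers: with the replicate number fitted, all 8 members passed in males. Heritability was then 0.280 (0.147 to 0.403) in RpL22, 0.260 in RpS19a, 0.256 in RpS28b and 0.36 (0.233 to 0.475) in RpS5b, against 0.561 (0.458 to 0.649) to 0.793 in the other second copies.

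In line means, male RpL22-like ran from 10.4 FPKM in line 595 to 44.9 FPKM in line 304, and both replicates of line 304 stood at 45.0 and 44.8 FPKM. Male RpS19b ran from 17.7 FPKM in line 336 to 60.1 FPKM in line 189, whose replicates gave 58.7 and 61.5 FPKM. Male RpS10a was highest in line 799, with 31.2 and 30.1 FPKM, and male RpS28a in line 461, with 21.1 and 15.4 FPKM. No 2 of the 4 genes had the same highest line.

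In females, 10077 of 10931 tested features (92.2%) varied between lines, and of the 4 members that were expressed highly enough RpS5b alone did. Its heritability was 0.406 (95% interval 0.284 to 0.516), below the median of 0.553 over tested features. RpL22, RpS19a and RpS28b had an estimate of 0, with line mean squares smaller than the mean squares between replicates (ratios of 0.67, 0.73 and 0.82). The mean difference between replicate numbers is part of that error, and with the replicate number fitted all 4 passed in females. Single-copy ribosomal protein genes were alike in this, with 10 of 64 passing in females and 39 of 64 in males. The 4 second copies scarce in females were not tested there. The sex difference itself varied between lines for 7968 of 10501 features (75.9%) and for 1 of the 4 members tested, RpS5b (interaction variance 0.0376, limma-moderated F test, adjusted p = 5.90e-05). With the replicate number fitted, all 4 passed, and the interaction variances were 0.0105 in RpL22, 0.0117 in RpS19a and 0.00654 in RpS28b against 0.0511 in RpS5b.

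The balance within a pair was also repeatable within male lines. The heritability of the log2 ratio of second to main copy was 0.604 (95% interval 0.508 to 0.685) for RpL22, 0.586 (0.487 to 0.670) for RpS19 and 0.624 (0.532 to 0.702) for RpS28. RpS5b in females had an SD of 0.20 between lines and of 0.25 between replicates. Across lines the pair ratio of females showed no relation past the threshold with that of males: r was 0.05 for RpL22, 0.04 for RpS19 and -0.01 for RpS28, with rho of 0.02, 0.09 and -0.01 and permutation p-values of 0.470 to 0.922 for r (adjusted p of 0.794 or more over 3 pairs). The female ratio there rested on few or 0 reads of the second copy.

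Across male lines, second copies went with each other and main copies with each other. All 10 pairs of second copies were correlated over the 200 line means, with r from 0.31 to 0.69 and rho from 0.31 to 0.69 (permutation p = 1e-05 for each, adjusted p = 1.79e-05 over 34 correlations). RpL22-like and RpS19b were the closest at r = 0.69, and RpS5b and RpS28a the least close at r = 0.31. The 3 pairs of main copies had r from 0.65 to 0.76. Between a main and a second copy, 15 pairs had r from -0.09 to 0.18, and 2 of them passed at an adjusted p below 0.05. Leaving out the 2 farthest lines kept r between 0.28 and 0.70 among second copies and between 0.63 and 0.73 among main copies. In females, where RpS5b is the second copy abundant enough to compare, the classes were less apart. RpS5b had r of 0.44 with RpL22, 0.49 with RpS19a and 0.50 with RpS28b (rho of 0.41 to 0.46, permutation p = 1e-05 and adjusted p = 1.79e-05 for each), and the main copies had r of 0.64 to 0.70 with each other.

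Values from the same library share its scale, so the correlations were also taken with each gene from a different replicate number. Among second copies r was then 0.18 to 0.53, with RpL22-like and RpS19b again the closest. Among main copies it was lower, between 0.19 and 0.21, and between the classes it ran from -0.18 to 0.05. In females it was 0.12 to 0.19 between RpS5b and the main copies and 0.17 to 0.24 among the main copies. Within a single replicate number the male second copies had r from 0.22 to 0.69, the main copies from 0.55 to 0.80, and pairs across the classes from -0.02 to 0.38, which overlaps the second copies. With the single-copy ribosomal protein mean subtracted, the male second copies kept r of 0.29 to 0.75. The male main copies then had r of -0.11 to 0.47, and pairs across the classes -0.12 to 0.10. In females, with that mean subtracted, RpS5b had r of only -0.08 to 0.12 with the main copies, which had -0.04 to 0.36 with each other.

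**Figure D4:**
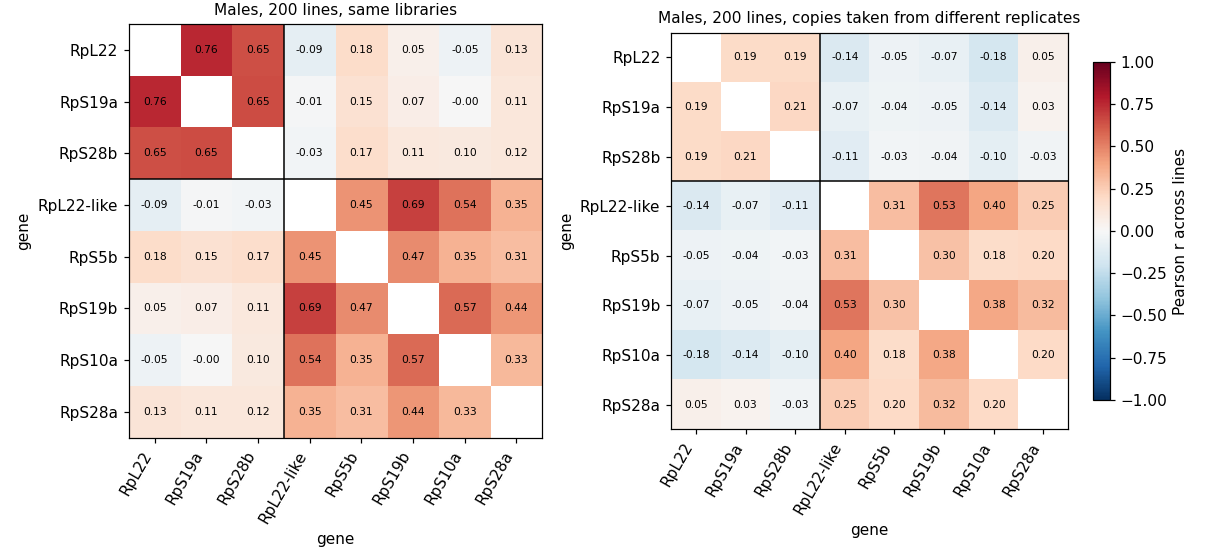
Pearson r across 200 lines in males for each pair of genes, from line means (left) and with each gene of the pair taken from a different replicate, averaged over both orders (right); black lines divide main from second copies. Second copies form a block of 0.31 to 0.69 that stays at 0.18 to 0.53 on the right, the block of main copies goes from 0.65 to 0.76 down to 0.19 to 0.21, and the blocks between classes lie between -0.18 and 0.18.

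For the pairs themselves, 6 correlations were computed, 3 in each sex. RpL22 and RpL22-like in males had r = -0.09, RpS19a and RpS19b r = 0.07 and RpS28b and RpS28a r = 0.12, with rho of -0.09, 0.05 and 0.10 and permutation p-values for r of 0.228, 0.327 and 0.10 (adjusted p = 0.521 for each). With libraries centred on their medians, RpL22 and RpL22-like had r = -0.23 and passed (permutation, adjusted p = 0.0066). The p-values above the threshold do not show that the copies were unrelated. In females these 3 pairs had r of -0.06, 0.06 and 0.02 with second copies near 0.

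Lists of marker genes were set beside the members, as 32 correlations across 200 line means adjusted together. In males each of the 5 second copies rose with the mean log2 level of the 16 testis germline markers. The correlation was r = 0.79 for RpS19b, 0.72 for RpL22-like, 0.61 for RpS10a, 0.53 for RpS5b and 0.43 for RpS28a (rho of 0.79, 0.72, 0.60, 0.55 and 0.44, permutation p = 1e-05 and adjusted p = 2.29e-05 for each). Without the 2 farthest lines r was 0.77, 0.70, 0.62, 0.53 and 0.41. The main copies had r of -0.10 to -0.05 with that list (-0.27 to -0.25 with libraries centred on their medians, where all 3 passed) and of 0.72 to 0.90 with the single-copy ribosomal proteins. In the same male lines RpS5b also rose with the log2 of the summed ovary germline markers (r = 0.53, rho = 0.43) and of the summed eggshell genes (r = 0.46, rho = 0.45), and with that of the summed testis markers r was 0.40 (rho = 0.46; permutation p = 1e-05 and adjusted p = 1.33e-05 over 4 lists for each). Without the 14 lines apart in eggshell genes these were 0.34, 0.25 and 0.45. How far testis content sets the second copies' line differences was not tested.

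In females RpS5b rose with the 10 ovary germline markers (r = 0.53, rho = 0.48, adjusted p = 2.29e-05 by permutation) and with the single-copy ribosomal proteins (r = 0.59, rho = 0.52, adjusted p = 2.29e-05). RpS19a and RpS28b also went with the ovary list, at r = 0.36 (rho = 0.32) and 0.28 (rho = 0.24; permutation, adjusted p of 8.53e-05 or smaller for r). RpL22 did not pass (r = 0.10, rho = 0.08, permutation, adjusted p = 0.189), and RpS28a, listed at 0 in most female libraries, went against the list (r = -0.19, rho = -0.19, permutation, adjusted p = 0.0125). Centred on library medians, the ovary correlation was 0.31 in RpS5b, 0.02 in RpS19a, and -0.22 in RpL22 and -0.17 in RpS28b, and of these RpS19a did not pass.

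Some females carried male-like levels of a second copy. In line 373 female RpS10a was 54.2 and 27.1 FPKM in the replicates, against 14.1 and 11.4 FPKM in males of that line. In line 882 it was 36.5 and 33.0 FPKM in females and 17.6 and 13.9 FPKM in males. These were the 2 lines with more RpS10a in females than in males. Lines 75 (6.24 and 8.05 FPKM) and 861 (6.38 and 6.33 FPKM) also had both female libraries inside the male range, which began at 6.0 FPKM. The female median of 0.261 FPKM was lower than all of these by far, and both replicates of each line were high.

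RpS19b showed the same in other lines. In line 391 its female libraries had 19.0 and 16.4 FPKM and its male libraries 20.4 and 25.8 FPKM. Line 783 followed with 9.28 and 4.26 FPKM and line 730 with 3.52 and 3.47 FPKM in females, below the male range. Female RpL22-like and RpS28a had no line with both libraries inside the male range. The lines were different for RpS10a and RpS19b, and their males were not among the highest. Male RpS10a averaged 12.8 FPKM in line 373, 15.7 in line 882, 17.4 in line 75 and 17.2 in line 861, around a median of 14.3 FPKM over male lines. Line 799, highest in males at 30.6 FPKM, had 4.50 and 2.56 FPKM of RpS10a in females, the sixth highest female line. Male RpS19b averaged 23.1 FPKM in line 391 and 23.8 FPKM in line 783, below the male median of 30.6 FPKM.

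Other male RNA was set beside these females. Since bam, CycB3 and twe were higher in females, the other 13 testis germline markers were summed. The female libraries had 12.6 and 10.9 FPKM in line 373, 14.6 and 15.8 FPKM in line 882 and 13.3 and 12.4 FPKM in line 391, against a range of 7.52 to 41.6 FPKM with a median of 11.5 FPKM over female libraries, and 906 to 3381 FPKM in males. Line 882 ranked 19 of 200 female lines in this sum, line 391 ranked 58 and line 373 ranked 95. Line 882 was also high in the summed accessory gland genes, with 24.0 and 22.2 FPKM against a female median of 1.46 FPKM (rank 9), and in RpL22-like, with 0.832 and 0.565 FPKM (rank 4). In lines 373 and 391 the accessory gland sum was 5.57 and 0.0343 FPKM and 4.51 and 0.411 FPKM. The part of other male RNA in the RpS10a of line 882 was not tested. Of the 16 markers singly, aly in line 373, and fzo and bol in line 882, were above the 95th percentile of female lines, and in line 391 none of the 16 was. Neighbouring genes were also looked at. Beside RpS10a, Mtl, tau and Mlc1 ranked between 31 and 145 of 200 female lines in lines 373 and 882, and unc80 ranked 5 in line 882 and 92 in line 373. Beside RpS19b, CG13599 ranked 5 and CG5854 ranked 11 in line 391, and Rpt2 and Gdh ranked 114 and 119. RpS10a overlaps tau on the opposite strand, and RpS28b overlaps CG15317 on the opposite strand. RpL22 overlaps lncRNA:CR42491 and snoRNA genes on the same strand. Whether the counting used the strand, and how reads in such overlaps were counted, is not given in the sources used here.

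**Figure D5:**
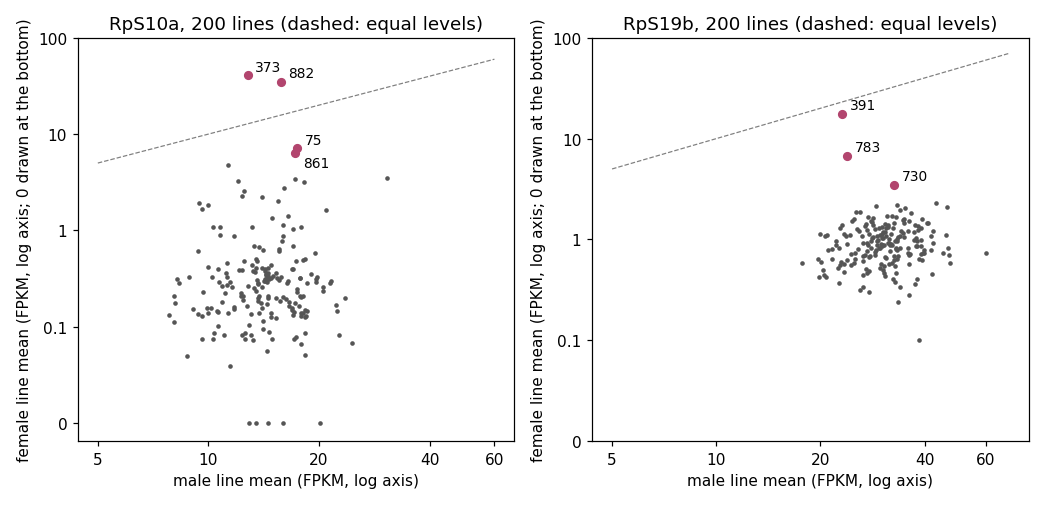
Female against male line mean (FPKM, log axes, 0 drawn at the bottom) of RpS10a and RpS19b in 200 lines; the dashed line marks equal levels and labelled points are the lines named in the text. For RpS10a lines 373 and 882 lie above the dashed line, and for RpS19b line 391 lies just below it, at 17.7 FPKM in females.

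The levels of female and male lines were otherwise hardly related for the copies scarce in females, whose female values rested on few reads. The median female library held 1 read of RpL22-like, 7 of RpS19b, 2 of RpS10a and 0 of RpS28a, which limits what r can show. The correlation between female and male line means was 0.05 for RpL22-like, 0.01 for RpS19b, -0.01 for RpS10a and 0.02 for RpS28a, with rho of 0.06, 0.12, -0.01 and 0.00 (permutation p of 0.471 or more for r). It was 0.24 for RpS5b (rho = 0.22, permutation p = 0.00045, adjusted p = 0.0018 over 8 genes), and 0.20 to 0.29 for the main copies. With the sexes taken from different replicate numbers, RpS5b had 0.15 and the main copies 0.07 to 0.10.

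Male libraries with the most RpS5b also held other ovary RNA. In line 399 the male replicates had 81.2 and 16.7 FPKM of RpS5b, and the summed eggshell genes were 906 and 13.2 FPKM in the same libraries. In line 395 they had 57.0 and 19.2 FPKM of RpS5b and 123 and 12.1 FPKM of eggshell genes, and in line 461 36.9 and 65.4 FPKM of RpS5b and 145 and 492 FPKM of eggshell genes. In each of these lines the replicate with more RpS5b had more eggshell RNA. In line 531 the replicates had 51.2 and 18.5 FPKM of RpS5b and 29.8 and 13.7 FPKM of eggshell genes. The ovary germline list moved likewise, from 88.0 to 177 FPKM between the replicates of line 399, against a male median of 79.0 FPKM. Female flies or tissue in a male pool was not tested. Without the 14 lines apart, the male median of RpS5b was 13.4 FPKM and its highest value was 51.2 FPKM.

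The features most like each member over the 200 lines, in the sex where it was higher, also divided by class. They are given as a description, from 9311 named features in females and 12146 in males. The 3 main copies were nearest to other ribosomal protein genes. RpL22 was nearest to RpL18 (r = 0.81) and RpL7 (0.80), RpS19a to RpS7 (0.87) and RpL13 (0.86), and RpS28b to RpL29 (0.87) and RpS25 (0.86). These r values came from the same libraries, and without the replicate number fitted the SD between female lines was 0 in all 3. With genes from different replicates, r among the main copies was 0.17 to 0.24 in females. The nearest features were not taken again that way. RpS5b in females was nearest to alpha-PheRS (0.65), a subunit of the phenylalanine tRNA synthetase, and Dph5 (0.64), an enzyme of diphthamide synthesis. RpL22-like in males was nearest to Rbp4 (0.73) and tbrd-1 (0.69), both known from spermatocytes, and RpS19b to pont (0.78), an ATPase of chromatin complexes, and CG8097 (0.77). RpS10a was nearest to CG44271 (0.64) and CG17118 (0.63), and RpS28a to Atg8b (0.53), an autophagy gene, and CG4546 (0.51). The features named beside RpS10a and RpS28a were all low in females, with mean log2 levels between -8.79 and -1.83. No ribosomal protein gene was among the 2 nearest of a second copy.

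The authors' deposited log2 variant density per gene and line was set against the line means in each sex. Over all genes, 2072 of 10638 (19.5%) passed at an adjusted p below 0.05 in females and 3604 of 14488 (24.9%) in males. RpS5b passed in both sexes, with r = 0.32 in females (adjusted p = 1.00e-04) and r = 0.31 in males (adjusted p = 0.000133). In females the 99 lines with a variant in RpS5b had a mean log2 level of 9.49 ± 0.28 (SD) and the 101 lines without had 9.34 ± 0.24, and in males the means were 3.93 ± 0.43 and 3.68 ± 0.39. In each sex the SD among lines was larger than the difference. RpL22 passed in females alone (r = 0.32, adjusted p = 7.20e-05, against r = 0.03 in males), which was not tested as a difference between sexes. The heritability of RpL22 in females was estimated at 0 in the fit reported and at 0.27 with the replicate number fitted. Its relation to variant density is therefore given as a description. RpS19b passed in males (r = 0.22, adjusted p = 0.00956), with 4.96 ± 0.29 in 142 lines with variants and 4.82 ± 0.29 in 58 without. The other members tested, 2 of 4 in females and 6 of 8 in males, did not pass.

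The authors' own line means, read from the deposited tables, ordered the lines much as the plain means did. In the authors' deposited table for males the correlation with plain means was 0.99 for RpL22-like and RpS10a, and 0.95 for RpS5b. In the authors' deposited table for females it was 0.95 for RpS5b, 0.98 for RpS19b and 0.99 for RpS10a. The authors' values were drawn toward the mean, with an SD of 0.76 over lines for female RpS10a in the authors' deposited table against 2.75 for the plain means.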

How the data were processed

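The authors deposited log2 FPKM per feature and library, log2 variant density per gene and line, and log2 line means per sex. The lowest value equals log2 of 0.001, so a pseudocount of 0.001 FPKM is in the deposited log2 values. Per the submitters' processing notes, BWA 0.7.10, STAR 2.4.0e, Cufflinks 2.2.1, HTSeq and edgeR were used with builds BDGP5 and dm3; their roles are not given, and no coordinates are printed. Chromosome arms came from BDGP6.54 by identifier. Depth was recovered from values that were whole multiples of 1 read (98.6% within 0.05 reads below 20 reads).

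Sex differences (limma 3.58.1, R 4.3.3) were fitted on 200 line means, line effects and interactions on replicates, each over all features whose mean log2 FPKM reached 0 (in either sex for the sex difference, in both for the interaction), with Benjamini-Hochberg adjustment. The fits were tested on simulated data. Correlations used Python 3.11.15, numpy 2.4.6 and scipy 1.17.1, with 100000 permutations. The members, lists and tests were chosen with earlier results of these data known. One member and its pair are not reported here. Named genes are all members described, the 2 features nearest each member, the 3 largest and 3 smallest differences among single-copy ribosomal proteins, the other listed duplicates and the 2 highest members of each marker list; further marker genes, neighbours and lines were named after their values were seen. Replicates are separate pools of flies of an inbred line. A search of promoter motifs was not run, since no sequences were used here.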

Additional observations from a re-analysis of the deposited data

Results flagged for a closer look

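The sex difference of RpS5b varied between lines, as did that of 7968 of 10501 features tested (75.9%). The variance of the interaction between line and sex was 0.0376 on the log2 scale (limma-moderated F test, adjusted p = 5.90e-05), against 0 for RpL22, RpS19a and RpS28b, which had 0.0105, 0.0117 and 0.00654 and passed with the replicate number fitted. Female line means of RpS5b ran from 404 to 1239 FPKM and male line means from 6.95 to 51.1 FPKM, and the highest male line, 461, also had 145 and 492 FPKM of summed eggshell genes in its libraries against a male median of 6.95 FPKM. Without the 14 lines that stood apart in eggshell genes the interaction variance was 0.0308 (adjusted p = 2.96e-05).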

How the results depend on the processing

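Line means rest on 2 pools per line and sex, and female values of RpL22-like, RpS10a and RpS28a on 0 to 2 reads in the median library, which limits what can be said of their lines in females. The calls of RpL22-like, RpS5b, RpS19b, RpS10a and RpS28a for sex held under all 11 alternatives. The number of female-higher members was 4 in the fit reported and 1 with median-centred libraries, 1 centred on single-copy ribosomal protein genes and 1 with a minimum difference of 2, since the main copies fell under the minimum; centred on single-copy genes RpL22 and RpS28b had -0.20 and -0.26. Over all features the female-higher count was 1771 with median-centred libraries, 943 centred on single-copy ribosomal proteins, 4935 with no filter, 5888 with no minimum difference and 1237 with a minimum of 2. The male-higher count was 10281 centred on single-copy ribosomal proteins, 13949 with no filter, 3504 with the filter at a mean of 2, 9292 with no minimum and 3274 with a minimum of 2.

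With no filter, 17450 of 34405 features varied between lines in females, 22063 of 34477 in males and 13702 of 34396 in the interaction. Members called between lines in females were 1 as reported (10077 of 10931 features) and 2 centred on single-copy genes (9130 of 10931). With no filter 4 were called, RpL22-like, RpS5b, RpS19b and RpS10a. With the replicate block a different set of 4 was called, RpL22, RpS19a, RpS28b and RpS5b (10342 of 10931). In the interaction 1 member was called as reported (7968 of 10501 features). The same sets of 4 were called there with no filter and with the replicate block (9119 of 10501). In the fit reported, replicate numbers were not used to pair the samples. The deviations of same-numbered female and male libraries had a median correlation of 0.077 (-0.21 to 0.43) over 200 lines, above 0.1 in 83. Between female and male lines the main copies had r of 0.12 to 0.36 within a replicate number and 0.07 to 0.10 across numbers. With the replicate block the heritability in females was 0.27 for RpL22, 0.25 for RpS19a and 0.29 for RpS28b, and the interaction variance 0.0105, 0.0117 and 0.00654; the counts over all features became 10342, 14082 and 9119, and for the sex difference 3215 and 5749, as without it. Leaving out a replicate number leaves 1 library per group, so line variation was not refitted that way.

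The correlations between paralogs were the least stable results. With median-centred libraries RpL22-like and RpL22 in males had r = -0.23 and passed, and RpS19b and RpS19a in males had -0.078. Centred on single-copy ribosomal proteins, r was 0.036 for the RpL22 pair in females, -0.032 for the RpS19 pair in females and -0.089 for the RpS28 pair in males. With copies from different replicates, r was -0.052 and -0.033 for the RpS19 and RpS28 pairs in males. Leaving out each replicate number gave ranges of -0.15 to 0.054 (females) and -0.019 to 0.026 (males) for the RpL22 pair, -0.064 to 0.087 and 0.048 to 0.24 for the RpS19 pair, and -0.078 to -0.00060 and 0.14 to 0.25 for the RpS28 pair.

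Of single marker and variant correlations, signs turned mostly where r was near 0. With 1 FPKM added, RpS28a with the single-copy list in females had -0.020. Median-centred, the ovary list gave -0.22 for RpL22, -0.17 for RpS28b and -0.047 for RpL22-like, and the single-copy list in males -0.083 for RpS19b and -0.084 for RpS10a. Leaving out each replicate number gave ranges of -0.11 to 0.044 in females and 0.037 to 0.062 in males for RpL22-like with the single-copy list, -0.092 to 0.036 for RpS28a with that list in females, and -0.047 to 0.046 for RpL22-like with the ovary list. With the testis list the ranges were -0.032 to 0.0018 for RpL22, 0.018 to 0.020 for RpS19a and 0.018 to 0.060 for RpS28b. Without the lines apart in eggshell genes, a setting chosen after seeing the data, RpL22-like had -0.016 with the ovary list. For variant density in males, RpL22 had -0.015 to 0.074 and RpS19a -0.0012 to 0.032 with a replicate number left out, and RpS19a -0.0068 by rank. The cause was not tested for any of these.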
